A study of Tupaia belangeri with 15 samples.

Results

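SLIT2-positive retinal ganglion cells (RGCs) of the tree shrew (TS, Tupaia belangeri) were taken from the single-nucleus RNA sequencing matrices of 15 retinas, with 5 retinas each of the stages labelled Infancy, Mature and Senile. The members were chosen by counts of unique molecular identifiers (UMIs, 1 per captured RNA molecule). A nucleus was a member if it held at least 3 UMIs of SLIT2, at least 1 UMI each of the RGC genes RBPMS and SLC17A6, fewer than 2 of SPP1, fewer than 3 each of FOXP2 and RUNX1, and none of the cone gene ARR3. Gene number was limited to over 200 and under 6000 and mitochondrial UMIs to under 5%, which 119765 nuclei passed, and 580 of these met the rule. The same conditions without the one on SLIT2 were met by 3041 nuclei, called the RGC gate here, of which 1973 held no SLIT2 UMI and served as SLIT2-negative RGCs. SLIT2 (TSDBGID.19875) and the other 6 genes of the rule were left out of every count of genes, because the rule fixed their values. They were not removed from the fits or from the adjustment of p-values.

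No treatment is named for any retina, and nuclei were isolated from frozen tissue. Senile animals were bought from another institute than infant and mature ones, so source cannot be told apart from stage wherever Senile is compared. The retinas came from separate animals by the study's description, and the labels do not say which were processed on the same day. Libraries held 13429873 to 58734300 UMIs, with a median of 1461 to 5611 per nucleus. Headers gave Cell Ranger 6.1.2 for 7 libraries (Infancy 1 to 3, Mature 1 and 2, Senile 1 and 2) and 7.0.1 for the other 8. The labels call the molecule polyA RNA in the same 7 libraries and total RNA in the other 8, so whatever else differed between the sets cannot be told apart from the software version. The labels and the study's methods name different versions of the 10x kit. In the first set 3.80% to 5.12% of nuclei fell in the RGC gate, and in the second 0.253% to 1.89%. Of 117976 distinct barcodes, 1768 occurred in 2 or more libraries, among them 20 member barcodes, and no barcode was a member in more than 1 library.

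SLIT proteins are secreted ligands that bind ROBO receptors on growing axons and dendrites and usually repel them. In the vertebrate retina this pathway helps to hold RGC axons in the optic fibre layer and to steer them at the optic chiasm, and it is also used by neurons to shape their dendrites. RGCs are the output neurons of the eye, and their types differ in transcription factors, adhesion molecules, ion channels and transmitter receptors, which set where their dendrites stratify and how they fire.

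The 580 members held 3 to 23 SLIT2 UMIs, with a median of 6. Most of the gate lay at 0. From 1 to 4 SLIT2 UMIs the numbers fell, with 347 nuclei at 1, 141 at 2, 116 at 3 and 78 at 4. The open class of 5 or more held 386 nuclei. Of the last conditions of the rule, the one on ARR3 removed the most nuclei. Of 904 nuclei with RBPMS, SLC17A6 and 3 SLIT2 UMIs, 228 held ARR3, 47 held SPP1 at 2 or more UMIs, 34 held FOXP2 and 48 held RUNX1 at 3 or more. ARR3 was held by 99 of 667 such nuclei in the 6.1.2 libraries (14.8%) and by 129 of 237 in the 7.0.1 libraries (54.4%), so that condition took a larger share of the candidates in the second set, with 51 of 66 in Mature 3. As a description, SLIT2 was summed over the members of a retina, with no test given because the rule used it. In counts per 1000000 UMIs of the sum (CPM) it reached 559 to 1118 CPM (median 773) in the 12 retinas with at least 10 members. In nuclei that lacked RBPMS or SLC17A6 it was 164 to 257 CPM (median 207), and in cones, taken as nuclei with at least 3 ARR3 UMIs, 31.1 to 133 CPM (median 54.8). SLIT2 RNA was thus counted outside the RGC gate too, and in each library 279 to 1365 nuclei of all kinds held 3 or more SLIT2 UMIs.

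**Figure D1:**
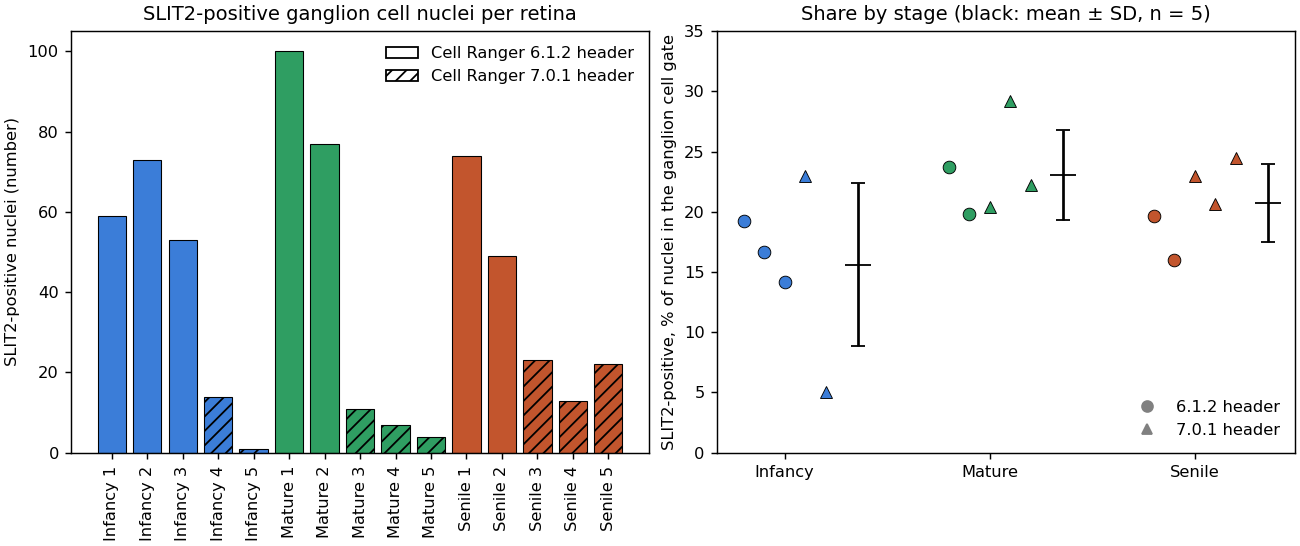
Left, number of SLIT2-positive RGC nuclei in each of the 15 retinas; right, their share of the nuclei in the RGC gate, 1 point per retina, with mean and SD per stage (n = 5). Retinas with a 7.0.1 header gave 1 to 23 members and those with a 6.1.2 header 49 to 100, while the shares overlapped between all stages.

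The Infancy retinas gave 59, 73, 53, 14 and 1 members in the order of their numbers, the Mature retinas 100, 77, 11, 7 and 4, and the Senile retinas 74, 49, 23, 13 and 22. Infancy 5, Mature 4 and Mature 5 had fewer than 10 and were left out of the tests on genes. The share of the gate that was SLIT2-positive was 19.3, 16.6, 14.2, 22.95 and 5.0% in Infancy, 23.8, 19.8, 20.4, 29.2 and 22.2% in Mature and 19.6, 16.0, 23, 20.6 and 24.4% in Senile. Gates held 306, 439, 374, 61 and 20 nuclei in Infancy and 421, 388, 54, 24 and 18 in Mature. In Senile they held 377, 306, 100, 63 and 90. Each retina weighed the same in the means and tests, whatever the size of its gate. Means were 15.6% ± 6.76 (SD, n = 5), 23.1% ± 3.74 and 20.7% ± 3.26, and the stages overlapped. Mature exceeded Infancy by 7.47 percentage points (exact two-sided permutation test, p = 0.0476, adjusted over the 3 comparisons 0.143), Senile exceeded Infancy by 5.14 points (exact p = 0.159, adjusted 0.238), and Senile minus Mature was -2.33 points (exact p = 0.373, adjusted 0.373). None passed after adjustment. Without Infancy 5, which had 1 member, Mature exceeded Infancy by 4.81 points and Senile by 2.49, and Senile minus Mature was -0.804 points without Mature 4 and -1.14 without Senile 2. With RBPMS and SLC17A6 at 2 or more UMIs Senile exceeded Infancy by 9.57 points (exact p = 0.0476, adjusted 0.143). Within the 6.1.2 libraries the same differences were 5.11, 1.13 and -3.98 points, and within the 7.0.1 libraries 9.94, 8.72 and -1.23 points. With every nucleus thinned to 2000 UMIs and the rule applied anew, the shares were 1.87% ± 1.86 in Infancy, 2.65% ± 3.02 in Mature and 4.78% ± 3.99 in Senile, and the order of Senile and Mature turned.

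RGC markers were present in the members. Summed over 14 RGC markers, of which 12 had counts in the series, members reached 891 to 2060.4 CPM (median 1546), SLIT2-negative RGCs 1128 to 2622 CPM (median 1699.6) and cones 99.5 to 1296 CPM (median 249.8). The sums cover 12 retinas for members and 15 for SLIT2-negative RGCs and cones. POU4F2, which encodes a transcription factor used to define RGCs in other mammals, and the neurofilament gene NEFL were at 0 in every library. Absence of their RNA cannot be told apart from features that caught no reads. The related genes NEFM and POU4F1 had a UMI in 53.8% and 22.8% of members. STMN2, a microtubule regulator of axons, was at 320.2 to 658 CPM (median 395) in members and 313 to 565 CPM (median 382) in SLIT2-negative RGCs, a difference that did not pass (log2 fold change 0.13, SE 0.064, edgeR adjusted p = 0.18). SNCG, which encodes gamma-synuclein, also overlapped fully (260.3 against 220.1 CPM at the median, log2 fold change 0.061, SE 0.076, edgeR adjusted p = 0.682). Of 11 RGC markers tested, 1 was higher in members (ISL1), 3 were lower (THY1, NRN1 and EBF3) and 7 did not pass, with 16.7% called among all genes tested. THY1, a surface glycoprotein, was at 19.1 to 429 CPM (median 177) in members and 36.8 to 684 CPM (median 262) in SLIT2-negative RGCs (log2 fold change -0.57, SE 0.082, edgeR adjusted p = 2.42e-06), and the neurite factor gene NRN1 at 31.3 to 277 CPM (median 188) and 109 to 470.0 CPM (median 272) (log2 fold change -0.62, SE 0.079, edgeR adjusted p = 3.78e-07). Both groups overlapped across retinas, but within a retina NRN1 was lower in members in 12 of 12 and THY1 in 11 of 12.

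Markers of other cells were compared in the same way. The sums again cover 12 retinas for members and 15 for SLIT2-negative RGCs, cones and nuclei that lacked RBPMS or SLC17A6. The 11 amacrine markers summed to 489 to 1386 CPM (median 737) in members against 798 to 1309 CPM (median 1123) in SLIT2-negative RGCs, and the 9 bipolar markers to 973 to 1632 CPM (median 1044) against 958 to 1940.5 CPM (median 1241). The 7 cone markers stood at medians of 31.1 and 41.9 CPM, against 3195 CPM in cones. Members were higher in glial markers: the 4 astrocyte markers had a median of 47.9 CPM (range 0 to 93.2) against 5.83 (0 to 31.9), most of it SLC14A1, a urea transporter gene, while PAX2 and GFAP had a median of 0 in both. The 5 Müller cell markers had medians of 69.6 and 44.0 CPM, and nuclei that lacked RBPMS or SLC17A6 had 83.4 and 364 CPM of the astrocyte and Müller markers. Members were also deeper, with a median of 7858 UMIs per nucleus against 5066 in SLIT2-negative RGCs, and 54 of 580 members against 102 of 1973 SLIT2-negative nuclei were called as doublets. The 4 horizontal cell, 6 rod and 6 microglia markers had medians of 77.5, 19.6 and 7.02 CPM in members and 98.9, 12.7 and 5.64 CPM in SLIT2-negative RGCs. The part of these markers in the differences that follow was not tested. For depth, a fit was repeated with both types limited to a range of UMIs per nucleus, called the members' depth range here. It ran from the 10th to the 90th percentile of the members' UMIs in the same retina. Depth was not matched inside this range, so the types may still differ in depth there.

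Members and SLIT2-negative RGCs of the same retina were compared in 12 retinas with edgeR, with the retina as a block. Members carried more RNA of the cadherin gene CDH7, the transcription factor gene BNC2 and the growth factor gene PDGFD, and less of the transcription factor genes EBF2 and EBF3, the engulfment adaptor gene GULP1 and the kinase gene STK32A. Of 6617 genes, 16.7% passed at an adjusted p under 0.05, 512 higher (7.74%) and 596 lower (9.01%), and the median log2 fold change of all genes was 0.006. With no filter on low counts the median of these genes shifted to -0.13 and the split became 429 higher and 1358 lower.

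CDH7, a cell adhesion cadherin, was at 288 to 600.4 CPM (median 439.7) in members and 39.2 to 120.0 CPM (median 88.1) in SLIT2-negative RGCs. Each member value exceeded every SLIT2-negative value (log2 fold change 2.33, SE 0.086, edgeR adjusted p = 4.27e-19). BNC2, a zinc finger factor also known as basonuclin 2, was at 29.1 to 286 CPM (median 158) in members and 2.70 to 34.3 CPM (median 15.0) in SLIT2-negative RGCs (log2 fold change 3.52, SE 0.20, edgeR adjusted p = 3.07e-14). Its lowest member values, 46.7 and 29.1 CPM, were those of Infancy 3 and 4, and the latter lay under the highest SLIT2-negative value, 34.3 CPM. PDGFD, a secreted ligand of platelet-derived growth factor receptors, was at 36.8 to 100.2 CPM (median 63.4) against 0 to 28.6 CPM (median 3.09), with no overlap (log2 fold change 3.71, SE 0.26, edgeR adjusted p = 9.74e-13). PRKG1, the cGMP-dependent protein kinase, was at 676 to 1172 CPM (median 903) against 189 to 408 CPM (median 305), again with no overlap (log2 fold change 1.53, SE 0.068, edgeR adjusted p = 4.81e-17).

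Among the other leading genes, TOX2, an HMG-box factor, was at 121 to 180.3 CPM (median 146) in members and 10.8 to 95.5 CPM (median 59.5) in SLIT2-negative RGCs (log2 fold change 1.36, SE 0.12, edgeR adjusted p = 1.28e-10). GCNT2, which builds branched glycans, had medians of 90.9 against 28.9 CPM (log2 fold change 1.68) and COL4A4, a basement membrane collagen chain, of 82.1 against 27.4 CPM (1.74). Neither overlapped between the groups, and nor did TOX2. PPP1R1C, an inhibitor of protein phosphatase 1, and NWD2 were higher by 2.12 and 2.02 on the log2 scale without overlap, and PRR16 and the cadherin CDH6 by 1.32 and 1.32 with overlap. CALB1, the calcium buffer calbindin, had medians of 108 against 41.4 CPM (log2 fold change 1.51, SE 0.14, edgeR adjusted p = 1.17e-09), but it was higher still in cones, at 204 CPM, so it was not particular to these nuclei. These genes were also counted outside the gate. CDH7 stood at 183 CPM, PRKG1 at 485 CPM and NWD2 at 109 CPM in nuclei that lacked RBPMS or SLC17A6, above their SLIT2-negative medians of 88.1, 305 and 32.4 CPM. BNC2 and PDGFD, with medians there of 19.2 and 14.9 CPM, also lay above their SLIT2-negative medians of 15.0 and 3.09 CPM, whereas TOX2 and GCNT2, at 30.4 and 15.4 CPM, lay below theirs. All 7 lay below their medians in members.

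**Figure D2:**
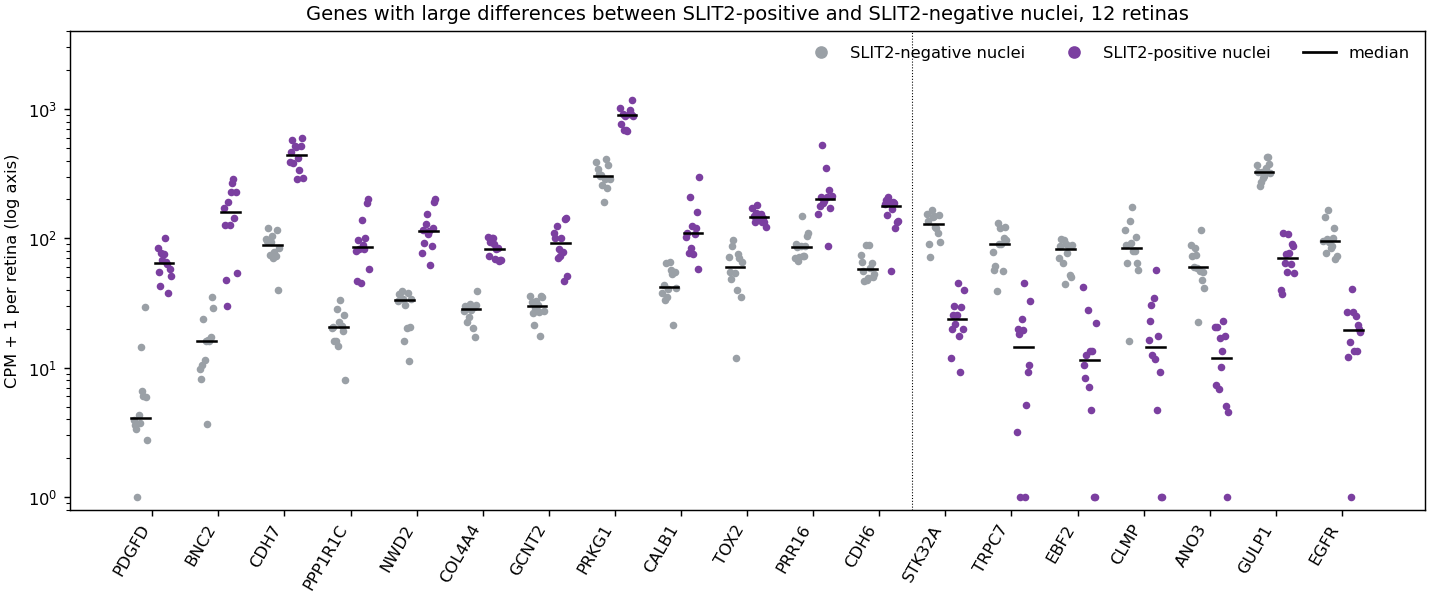
Levels of 12 higher and 7 lower genes with large differences, as CPM + 1 on a log axis, 1 point per retina and type (12 retinas) with the median as a line; points at the bottom are retinas with no UMI. CDH7, PDGFD and PRKG1 of members lay above every SLIT2-negative value, and EBF2, GULP1 and STK32A of members below every one.

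On the lower side the transcription factor gene EBF2 was at 0 to 41.4 CPM (median 10.6) in members and 43.3 to 98.5 CPM (median 81.1) in SLIT2-negative RGCs, and EBF3, its paralog, at 5.82 to 169 CPM (median 87.2) against 243 to 336 CPM (median 281) (log2 fold changes -2.36 and -1.69). For both, every member value lay below every SLIT2-negative value. GULP1 was at 36.4 to 108 CPM (median 69.2) against 255 to 427 CPM (median 328) (log2 fold change -2.28, SE 0.12, edgeR adjusted p = 4.02e-15) and STK32A had medians of 22.7 against 128 CPM (log2 fold change -2.54, SE 0.15, edgeR adjusted p = 3.41e-14). The epidermal growth factor receptor gene EGFR (log2 fold change -2.27), the cation channel gene TRPC7 (-2.50), the anoctamin gene ANO3 (-2.31) and the adhesion gene CLMP (-2.31) were lower in members, though TRPC7, ANO3 and CLMP overlapped between the groups.

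Levels changed with the number of SLIT2 UMIs on both sides of the threshold. In counts pooled over retinas, CDH7 came to 91.4, 199.5, 259, 328, 472 and 475 CPM in gate nuclei with 0, 1, 2, 3, 4 and 5 or more SLIT2 UMIs, and BNC2 to 13.1, 26.0, 40.1, 86.5, 162 and 173 CPM. Nuclei just outside the rule, with 2 UMIs, thus stood between the SLIT2-negative nuclei and the members, as did nuclei just inside, with 3. GULP1 took the opposite course with 330.1, 277, 165, 161, 47.0 and 48.9 CPM, and EBF3 came to 284, 165, 133, 108, 81.8 and 88.2 CPM. STMN2 had no such trend and lay between 410.5 and 465 CPM in all 6 classes. Median depth also rose along the classes, from 5066 to 8387 UMIs per nucleus, and retinas with many RGCs weigh most in these pooled values, which were not tested.

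**Figure D3:**
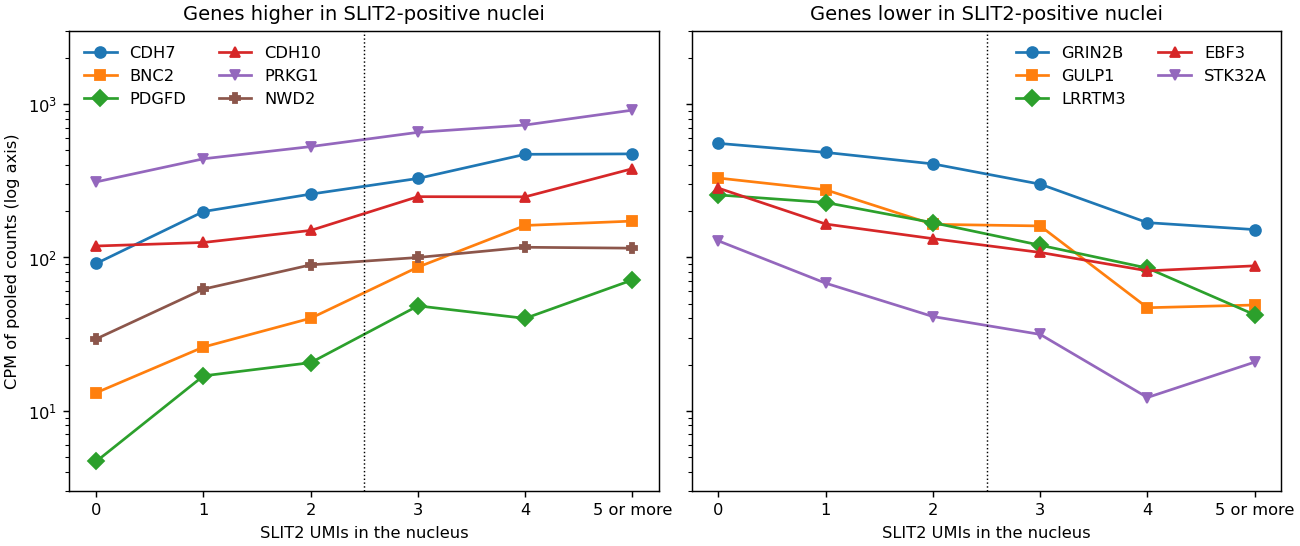
Pooled CPM on a log axis against the number of SLIT2 UMIs in the nucleus, for 6 genes higher (left) and 5 lower (right) in members; the dotted line is the threshold of the rule. From 0 to 5 or more UMIs CDH7 went from 91.4 to 475 CPM and GULP1 from 330.1 to 48.9 CPM.

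Nucleus by nucleus, 75.7% of the 580 members held a CDH7 UMI (exact 95% binomial interval 72.0 to 79.1%, which covers counting error only), against 28.6% of SLIT2-negative RGCs and 10.4% of 19702 cones, whose median depths were 5066 and 3633 UMIs. For BNC2 the shares were 39.7% (35.6 to 43.8%), 4.26% and 2.24%, and for PDGFD 25.9%, 1.67% and 1.61%. In SLIT2-negative RGCs the share with PDGFD was thus close to that in cones, which are taken here as the background. Thinned to 2000 UMIs per nucleus, a CDH7 UMI was left in 48.3% of members and 13.5% of SLIT2-negative RGCs, and a BNC2 UMI in 22.2% and 1.97%, with no member and 46 SLIT2-negative nuclei too shallow to be thinned. GULP1 was found in 17.1% of members and 48.7% of SLIT2-negative RGCs.

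Within the members, PDGFD was found more often where BNC2 was found, and members with a BNC2 UMI were deeper (median 8536.5 against 7369 UMIs). PDGFD was held by 48.3% of the 230 members with a BNC2 UMI and by 11.1% of the 350 without one, and after thinning by 22.5% of 129 and 8.43% of 451. A BNC2 UMI was found in 40.3% of the 439 members with CDH7 and in 37.6% of the 141 without, and after thinning in 16.8% of 280 and 27.3% of 300. GULP1 was rarer where CDH7 was found, in 11.6% against 34.0% of members, although members with CDH7 were the deeper ones (median 8209 against 6668 UMIs). After thinning the shares were 3.57% against 14%. These shares are over nuclei of all retinas and were not tested.

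The SLIT and ROBO pathway was described by 18 genes besides SLIT2, of which 11 were tested. In members 1 was higher and 3 were lower, and the median log2 fold change was -0.093. Of all genes tested 16.7% were called, 7.74% higher and 9.01% lower. Of the ligands, SLIT1 was at 14.2 to 46.7 CPM (median 27.2) in members and 38.0 to 92.7 CPM (median 73.4) in SLIT2-negative RGCs and was lower in members in 12 of 12 retinas (log2 fold change -1.15, SE 0.13, edgeR adjusted p = 3.43e-08). SLIT3 overlapped almost fully, with medians of 137 against 135 CPM and no call (log2 fold change -0.037, SE 0.16, edgeR adjusted p = 0.923). Within the members' depth range, however, it was called lower at -0.62. Of the receptors, ROBO1 was at 76.2 to 291 CPM (median 199) against 221 to 495 CPM (median 361) and was lower in members in 11 of 12 retinas (log2 fold change -0.73, SE 0.11, edgeR adjusted p = 3.66e-06). ROBO2 was at 5001 to 10798 CPM (median 6989.9) against 6336 to 11161 CPM (median 8191), a difference within the spread (log2 fold change -0.10, SE 0.060, edgeR adjusted p = 0.281). It was called at -0.26 with no filter on low counts, a fit that moved the median of all genes tested to -0.13. NELL2, a secreted ligand of ROBO3, had medians of 327 against 399 CPM (log2 fold change -0.29, SE 0.069, edgeR adjusted p = 0.00221). It was not called within the members' depth range. SRGAP1, a GTPase-activating protein that acts below ROBO receptors, had medians of 1115 against 865 CPM. It was higher in members in 12 of 12 retinas (log2 fold change 0.34, SE 0.053, edgeR adjusted p = 1.00e-05). Sums over nuclei chosen for SLIT2 RNA therefore held ROBO1 and ROBO2 RNA as well, at or below the level of SLIT2-negative RGCs. Nucleus by nucleus, a ROBO2 UMI was found in 99.3% of the 580 members and 98.6% of SLIT2-negative RGCs. A ROBO1 UMI was found in 44.5% and 44.0%, and after thinning in 24.3% and 31.0%. ROBO1 RNA was thus not counted in most members, and these shares were not tested. SLIT2 has antisense and LINC-named features in this annotation, and the sources used here do not say whether counting used strand, so overlapping transcripts cannot be told apart.

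Guidance genes of other families were called in both directions. Of 9 netrin pathway genes tested 1 was higher and 2 lower, of 9 ephrins and Eph receptors 1 and 4, and of 13 semaphorins, plexins and neuropilins 1 and 7 (median log2 fold change -0.17, -0.17 and -0.33). Among all genes tested 7.74% were higher and 9.01% lower. The netrin receptor gene UNC5D was at 45.0 to 302 CPM (median 87.9) in members and 117 to 380.4 CPM (median 285) in SLIT2-negative RGCs (log2 fold change -1.33, SE 0.21, edgeR adjusted p = 1.52e-05). DCC, the receptor through which netrin-1 attracts RGC axons to the optic disc, had medians of 1091 against 1618 CPM and was lower in members in 12 of 12 retinas (log2 fold change -0.55, SE 0.075, edgeR adjusted p = 1.39e-06). SEMA3A, a secreted repellent, and the semaphorin receptor gene NRP2 were lower, with log2 fold changes of -1.06 and -0.59 (edgeR, adjusted p = 4.85e-08 and 2.04e-06). EPHB1, which directs RGC axons to the same side of the brain in mouse, went the other way, at 87.3 to 436 CPM (median 328) against 98.8 to 227 CPM (median 138) (log2 fold change 1.14, SE 0.11, edgeR adjusted p = 6.78e-10).

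The cadherins split evenly, while more of the other adhesion genes were lower than higher. Of 16 cadherins and protocadherins tested 6 were higher and 6 lower (75% called, median 0.070), and of 37 other lamination and wiring molecules 6 and 17 (62.2% called, median -0.15), with 16.7% called among all genes. Beside CDH7 and CDH6, CDH10 was at 215 to 493 CPM (median 341) in members and 64.8 to 263 CPM (median 113) in SLIT2-negative RGCs (log2 fold change 1.56, SE 0.12, edgeR adjusted p = 2.06e-11). PCDH17 and PCDH19 were lower with no overlap, with log2 fold changes of -1.61 and -1.33. The axonal adhesion gene CNTN4 (849 to 1759.5 CPM (median 1048) against 406 to 774 CPM (median 497), log2 fold change 1.04) and FLRT2, a guidance ligand of UNC5 receptors (213 to 381 CPM (median 271) against 78.2 to 171 CPM (median 131), 1.12), were higher without overlap. The synaptic adhesion gene LRRTM3 (54.3 against 255 CPM at the median, -2.15) and NEGR1 (901 against 2126 CPM, -1.12) were lower without overlap.

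Of 34 RGC transcription factors tested, 7 were higher and 15 lower (64.7% called against 16.7% of all genes, median -0.084). Of 13 RGC type markers 7 were higher and 3 lower (76.9% called, median 0.54, with BNC2, CDH6 and CALB1 among them). The lists share genes, with BNC2 in both of these and CDH6 also among the cadherins. All gene lists were chosen with earlier results of these data known, so the shares called in them are a description. TSHZ3 was at 37.6 to 135 CPM (median 93.0) in members and 29.4 to 61.3 CPM (median 39.6) in SLIT2-negative RGCs (log2 fold change 1.24, SE 0.10, edgeR adjusted p = 5.29e-11). BCL11B and SOX6 were lower, with log2 fold changes of -1.67 and -1.50. ISL1, a LIM homeodomain factor of developing RGCs, was higher by 0.48 but overlapped (adjusted p = 3.43e-04), and POU4F1 did not pass (27.6 against 37.6 CPM at the median, adjusted p = 0.13).

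Ion channels and receptors differed gene by gene. Of 10 sodium channel genes tested none was higher and 4 were lower, of 29 potassium channel genes 9 and 8, and of 14 calcium channel genes 1 and 4 (median -0.19, 0.048 and -0.058). KCNIP4, which binds Kv4 channels, was at 305 to 617 CPM (median 413) in members and 1259 to 1961 CPM (median 1641) in SLIT2-negative RGCs with no overlap (log2 fold change -1.86, SE 0.088, edgeR adjusted p = 2.87e-16), and KCNC2, a Kv3 channel gene of fast-firing neurons, had medians of 360.2 against 974 CPM without overlap (-1.45). The subunit gene CACNA2D3 was higher (1063 against 484 CPM, 1.08) and the L-type channel gene CACNA1C lower (133 against 326 CPM, -1.26). Of 17 glutamate receptor genes 5 were higher and 6 lower (median -0.16). GRM7, a presynaptic metabotropic receptor, was at 1979 to 4584 CPM (median 3065) against 1019.8 to 1832 CPM (median 1389.7) with no overlap (log2 fold change 1.21, SE 0.077, edgeR adjusted p = 2.00e-13). GRIN2B, an NMDA receptor subunit, was at 123 to 357 CPM (median 159) against 451 to 666 CPM (median 559.8) with no overlap (log2 fold change -1.64, SE 0.10, edgeR adjusted p = 3.71e-14), while its counterpart GRIN2A was slightly higher (0.37, higher in 12 of 12 retinas). Among the AMPA receptor genes GRIA1 was lower (log2 fold change -1.99) and GRIA4 higher (0.57). Of 19 GABA, glycine and acetylcholine receptor genes 3 were higher and 6 lower (median -0.17), with GABRG3 at 1.61. Of 18 cytoskeletal genes none was higher and 3 lower, a share close to that of all genes (16.7%), of 12 injury and growth genes none and 1 (8.33%), and the 1 tested gene of the RNA quality list did not pass.

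**Figure D4:**
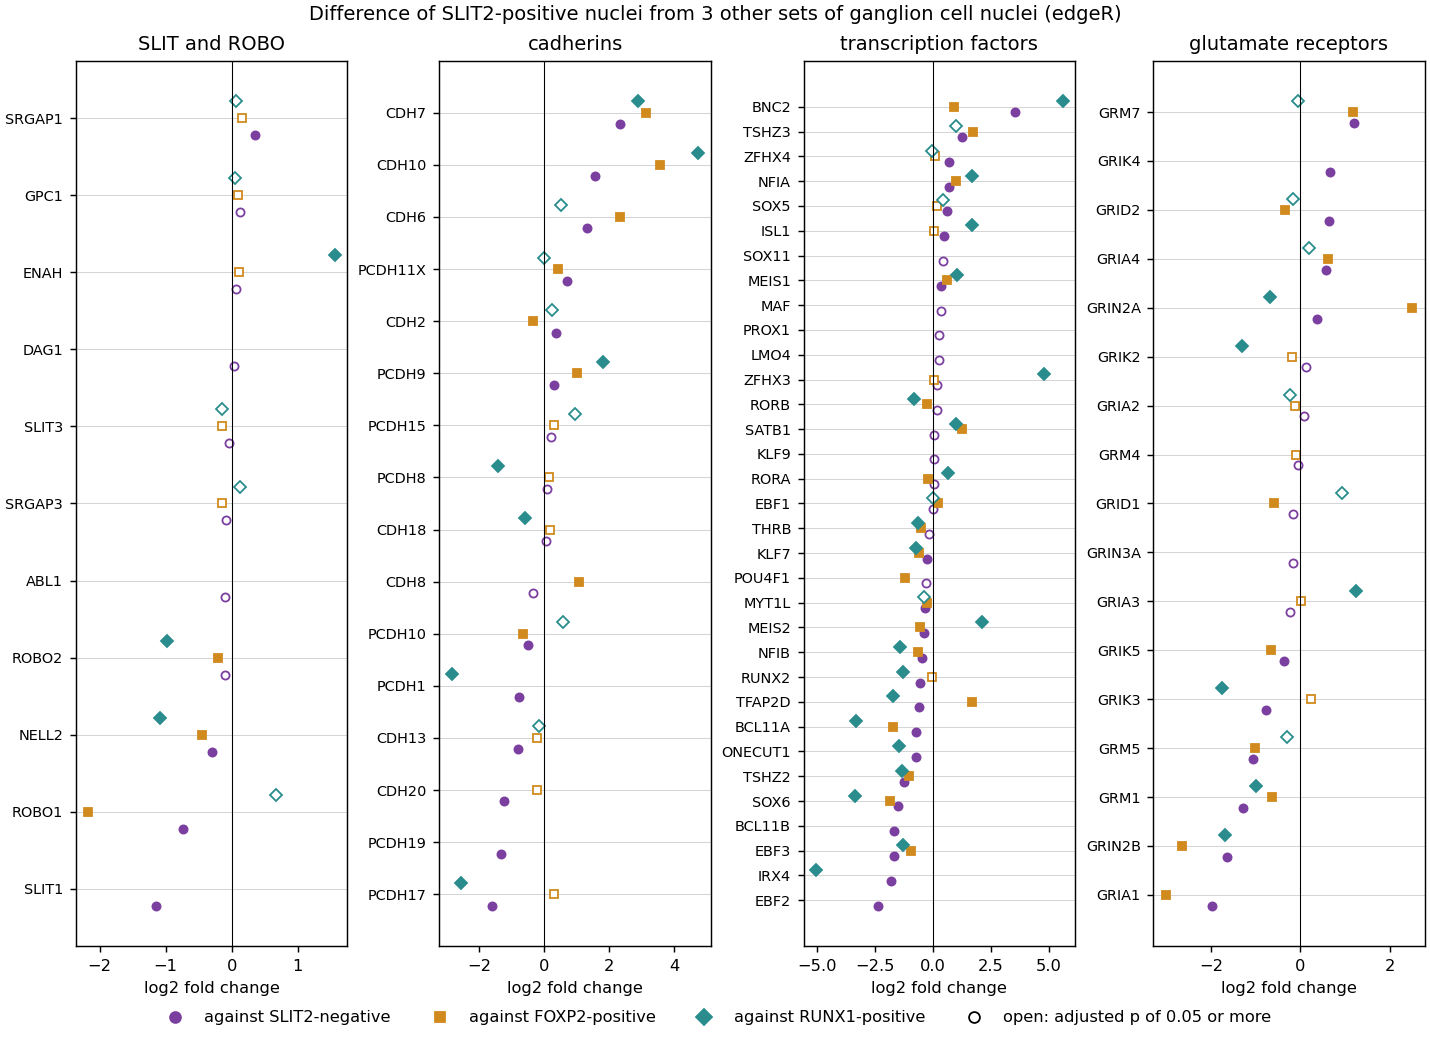
Log2 fold changes of members against SLIT2-negative (circles), FOXP2-positive (squares) and RUNX1-positive RGCs (diamonds) for genes of 4 lists; filled symbols passed at an adjusted p under 0.05. CDH7 and CDH10 were filled and to the right in all 3 comparisons, and GRIN2B filled and to the left.

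Members were then set against other labelled RGCs, nuclei with at least 3 UMIs of FOXP2 or of RUNX1. FOXP2-positive nuclei numbered 372 over all retinas, and 10 retinas with at least 10 of both types were tested. RUNX1-positive nuclei numbered 103 over all retinas, and 4 retinas were tested. These were Infancy 2, Mature 2, Senile 1 and Senile 2, with 11, 21, 12 and 10 RUNX1-positive nuclei of 5472, 5381, 5156 and 3184 UMIs at the median. FOXP2-positive and RUNX1-positive nuclei met the same conditions on RBPMS, SLC17A6, SPP1 and ARR3. They held fewer than 3 UMIs of SLIT2 and of the other of FOXP2 and RUNX1. These comparisons share the members with the first, so their values are given side by side and no overlap of calls is drawn. Against FOXP2-positive RGCs 840 of 4138 genes passed (20.3%), 365 higher (8.82%) and 475 lower (11.5%); with no filter on low counts the split was 639 and 487. Against RUNX1-positive RGCs 481 of 3316 passed (14.5%), 240 higher (7.24%) and 241 lower (7.27%), with 381 and 143 when no filter was used, which moved the median of these genes from 0.037 to 0.32.

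Against FOXP2-positive RGCs, members held more RNA of ZBTB16, CDH10, CDH7 and GRIN2A and less of MDFIC, LRRTM3 and GRIN2B. Of 14 cadherins and protocadherins tested 6 were higher and 2 lower (57.1% called, with 20.3% among all genes), of 36 other lamination and wiring molecules 4 and 13 (47.2%), of 15 glutamate receptor genes 3 and 7 (66.7%), and of 15 GABA, glycine and acetylcholine receptor genes 4 and 5 (60.0%). ZBTB16, a zinc finger factor, was at 66.7 to 229.8 CPM (median 132) in members and 0 to 30.8 CPM (median 7.17) in FOXP2-positive nuclei (log2 fold change 3.67, SE 0.23, edgeR adjusted p = 2.62e-13). CDH10 was at 256 to 493 CPM (median 368) against 0 to 106 CPM (median 14.5) (log2 fold change 3.56, SE 0.26, edgeR adjusted p = 5.20e-12) and CDH7 at 291 to 600.4 CPM (median 486) against 8.51 to 91.9 CPM (median 47.8) (log2 fold change 3.13, SE 0.17, edgeR adjusted p = 6.52e-15), and none of these 3 overlapped. Without Mature 1 the value for CDH10 was 4.44. The NMDA receptor genes differed in opposite directions. GRIN2A was at 814 to 1355 CPM (median 1060.5) against 40.3 to 336 CPM (median 178) (log2 fold change 2.51, SE 0.16, edgeR adjusted p = 4.63e-13) and GRIN2B at 123 to 217 CPM (median 149.7) against 879.7 to 1238 CPM (median 979) (log2 fold change -2.65, SE 0.086, edgeR adjusted p = 2.61e-20). MDFIC, a regulator of transcription, was found in no or few UMIs in members, 0 to 28.6 CPM (median 0), against 77.2 to 161 CPM (median 121), and its fitted log2 fold change of -5.93 depends on the prior count. CALB1, CHRNA6 (a nicotinic receptor subunit), IGSF21, CDH6, RYR3, TMEFF2, BRINP1 and PLEKHG1 were higher by 1.77 to 2.54 (log2), and STK32A, LRRTM3, GRIA1, FAM83B, GULP1 and WIPF1 lower, with log2 fold changes of -2.68 to -3.31.

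In the SLIT and ROBO list 8 genes were tested, none was higher and 3 were lower (median -0.14, all genes 0.002). Of all genes tested against FOXP2-positive RGCs 8.82% were higher and 11.5% lower. ROBO1 was at 76.2 to 291 CPM (median 198) in members and 494 to 1089 CPM (median 809) in FOXP2-positive nuclei, without overlap (log2 fold change -2.17, SE 0.14, edgeR adjusted p = 4.01e-13). ROBO2 was called at -0.21 with overlapping groups, a call lost in 5 of the alternatives. BNC2 overlapped, with 158 against 71.6 CPM at the median (log2 fold change 0.90, SE 0.23, edgeR adjusted p = 0.00344). It was not called by DESeq2 or within the members' depth range. Among 24 transcription factors 7 were higher and 12 lower, with POU4F1 (31.7 against 69.5 CPM, -1.20) and BCL11A (37.1 against 119 CPM, -1.73) lower and SATB1 (303 against 115 CPM, 1.24) and TFAP2D (79.6 against 14.4 CPM, 1.66) higher. Of the 9 RGC markers tested none was higher and 6 were lower, with 20.3% called among all genes. FOXP2-positive nuclei of 10 retinas had 0 to 121 CPM (median 8.65) of the astrocyte markers, against 47.9 CPM at the median in members of 12 retinas. KCNC2 (360.2 against 1622 CPM), KCNIP4 (413 against 1584 CPM) and NEGR1 (883 against 2896 CPM) were lower and GRM7 (3065 against 1369 CPM) and CACNA2D3 (1103 against 324 CPM) higher without overlap.

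Against RUNX1-positive RGCs, in 4 retinas, members held more RNA of BNC2, ZFHX3 and EPHB1 and less of IRX4 and BCL11A. In the order of Infancy 2, Mature 2, Senile 1 and Senile 2, BNC2 was at 125, 126, 266 and 286 CPM in members and 0, 0, 0 and 30.3 CPM in RUNX1-positive nuclei (log2 fold change 5.59, SE 0.62, edgeR adjusted p = 3.15e-08). ZFHX3, a homeobox factor, was at 267, 422, 379 and 282 CPM in members and 31.3, 14.3, 0 and 0 CPM in RUNX1-positive nuclei (log2 fold change 4.80, SE 0.42, edgeR adjusted p = 2.17e-10), and EPHB1 at 272, 293, 336 and 435 CPM in members and 0, 35.7, 0 and 0 CPM in RUNX1-positive nuclei (log2 fold change 4.30, SE 0.43, edgeR adjusted p = 2.98e-09). SEMA3A, CDH10, FAM163A, PDGFD, ERBB4, RYR3, CLSTN2, ZNF385D and SEMA5A were higher by 3.39 to 4.82 (log2), none with overlap. BNC2, EPHB1, SEMA3A, PDGFD, ERBB4 and SEMA5A had no UMI in 3 of the 4 RUNX1-positive sums, so their fitted values depend on the prior count and on the 1 retina with UMIs. Without Mature 2 the fitted log2 value was 9.44 for EPHB1, 7.58 for SEMA3A, 8.02 for ERBB4 and 7.61 for SEMA5A, and without Senile 2 it was 8.82 for BNC2 and 7.59 for PDGFD. ZFHX3 came to 5.53 without Infancy 2, and CLSTN2 and FAM163A to 5.42 and 5.15 without Mature 2.

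IRX4, an Iroquois homeobox factor, was at 1.58, 1.54, 14.8 and 4.14 CPM in members and 125, 235, 222 and 182 CPM in RUNX1-positive nuclei, in the same order of retinas (log2 fold change -5.05, SE 0.43, edgeR adjusted p = 1.05e-10), and BCL11A at 38.0, 44.5, 11.1 and 37.3 against 328, 364, 317 and 393 CPM (log2 fold change -3.32, SE 0.27, edgeR adjusted p = 5.56e-11). Without Senile 1 the value for IRX4 was -6.19. SLC26A5, STARD13, C8ORF34, KIRREL3, GULP1 and SOX6 were lower, with log2 fold changes of -3.36 to -4.35. Of 8 SLIT and ROBO genes 1 was higher and 2 lower (median 0.061, all genes 0.037), with 7.24% higher and 7.27% lower among all genes. ROBO2 was at 6589, 6841, 9579 and 8678 against 13795, 13859, 20912 and 16494 CPM (log2 fold change -0.98, SE 0.089, edgeR adjusted p = 3.73e-10). NELL2 had medians of 327 against 707 CPM (-1.09), whereas ENAH, an actin regulator, was higher (155 against 58.8 CPM, 1.56). ROBO1 was at 288, 139.7, 198 and 199 against 93.8, 221, 15.8 and 90.8 CPM and did not pass (log2 fold change 0.66, SE 0.33, edgeR adjusted p = 0.214). It was called higher without Mature 2 (1.93), and came to 0.33 to 0.57 when 1 of the other 3 retinas was left out. GRIN2B was again lower (145 against 488 CPM, -1.69), GRIN2A was lower too (1050.1 against 1810.2 CPM, -0.67), and CDH7 higher (439.7 against 69.2 CPM, 2.87, or 2.29 without Mature 2).

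Few genes of members differed between the stages. In a fit with stage and Cell Ranger version over 4 Infancy, 3 Mature and 5 Senile retinas, 26 of 6322 genes passed between Senile and Infancy (0.411%; 21 higher, 0.332%, and 5 lower, 0.0791%) and 16 between Mature and Infancy (0.253%; 11 higher, 0.174%, and 5 lower, 0.0791%). Between Senile and Mature 359 of these genes had an unadjusted p under 0.05, which chance alone gives in about 1 in 20. After adjustment edgeR called 0, and DESeq2 called 7. No gene of the pathway, adhesion, transcription factor, channel, receptor or marker lists passed in any of the 3, and the 11 tested SLIT and ROBO genes had medians of 0.062, 0.096 and 0.007. Markers of other cells moved in both directions from Infancy to Senile, without a call. Summed over the members of a retina, the 5 Müller cell markers came to 28.3 to 103 CPM in Infancy and 11.1 to 96.0 CPM in Senile (median 86.1 and 40.9), the 9 amacrine markers with counts to 674 to 1386 and 519 to 791 CPM (750.3 and 676) and the 6 microglia markers to 4.92 to 29.1 and 4.09 to 9.53 CPM (21.8 and 7.11). Other sums were higher in Senile at the median, all with overlap. Bipolar markers stood at 1007 CPM in Infancy and 1266 CPM in Senile, and horizontal cell markers at 52.3 and 81.3 CPM. Rod markers stood at 15.5 and 24.8 CPM and cone markers at 31.1 and 35.1 CPM. Astrocyte markers had medians of 46.5 and 46.2 CPM and RGC markers of 1833 and 1527 CPM. In the Senile retinas 3 microglia, 2 bipolar, 2 cone, 1 amacrine and 1 horizontal cell marker were at 0 throughout, and no Müller marker was. Infancy also had 1 microglia, 2 bipolar, 1 horizontal cell and 1 RGC marker at 0. Mature had 1 microglia, 2 bipolar, 1 cone, 1 horizontal cell and 1 astrocyte marker at 0. The ribosomal gene RPL13, the 1 tested gene of the RNA quality list, had a log2 fold change of -0.92 (edgeR adjusted p = 0.279). Their part in the stage differences was not tested. The split turned toward lower genes in several alternatives. Between Mature and Infancy it was 12 higher and 19 lower by DESeq2, 6 and 16 with SLIT2 at 5 or more UMIs, 11 and 17 with RBPMS and SLC17A6 at 2 or more, 15 and 16 with at least 20 members per retina and 2 and 6 with thinned nuclei. Between Senile and Infancy it was 2 and 5 with thinned nuclei. In the 7 libraries of Cell Ranger 6.1.2, an alternative chosen after seeing the data, the splits were 39 and 57 between Senile and Infancy and 34 and 59 between Mature and Infancy. The counts rested on single retinas: leaving out 1 gave 11 to 49 genes between Senile and Infancy and 0 to 29 between Mature and Infancy, with 0 without Infancy 2 or without Mature 1.

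All 21 features higher in Senile were numbered copies (12), LINC-named (7) or antisense (2), whose reads can be shared with like sequences, so their values are uncertain. One numbered copy, SPTLC1li7, chosen after its values were seen, was at 6.53, 17.4, 9.83 and 5.82 CPM in Infancy 1 to 4, 225, 104 and 12.5 in Mature 1 to 3 and 347, 435, 467, 267 and 103 in Senile 1 to 5. Every Senile value exceeded every Infancy value (log2 fold change 5.05, SE 0.55, edgeR adjusted p = 1.57e-04), and Mature 3 lay among the Infancy values. GOLGA2li1, also chosen after its values were seen, was at 2.18, 6.33, 0 and 5.82 CPM, then 58.4, 26.1 and 68.9 and then 161, 70.4, 184, 315 and 78.2, with no overlap between Infancy and the later stages (Senile against Infancy 4.87, Mature against Infancy 3.54, log2). Without single retinas the first ranged from 4.44 to 5.68 and kept its call, and the second from 3.10 to 4.36, not called without Infancy 1, Infancy 2, Infancy 3 or Mature 1. SLIT2-negative RGCs, which carry the same copies, gave 5.17 for SPTLC1li7 and 5.45 for GOLGA2li1 between Senile and Infancy.

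**Figure D5:**
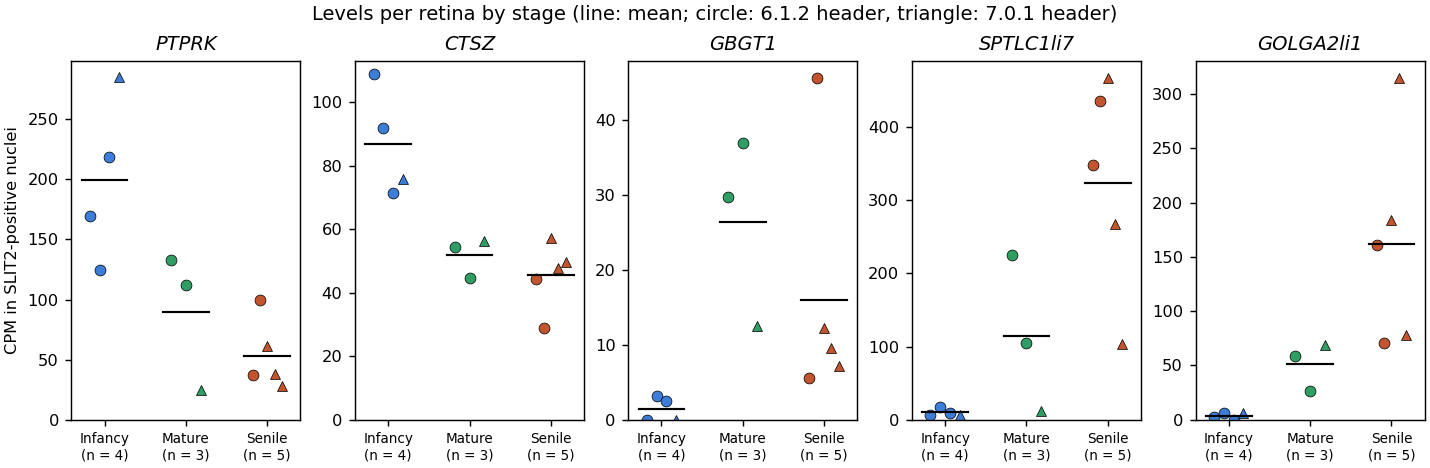
CPM in members per retina for 5 genes, by stage, with the mean as a line; circles are 6.1.2 and triangles 7.0.1 libraries. PTPRK and CTSZ lay higher in all 4 Infancy retinas than in any of the 5 Senile ones, and GBGT1, SPTLC1li7 and GOLGA2li1 reached at most 3.16, 17.4 and 6.33 CPM in Infancy.

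The genes lower in Senile had plain symbols. PTPRK, a receptor tyrosine phosphatase of cell contacts, was at 169.9, 125, 219 and 285 CPM in Infancy 1 to 4, 133, 112 and 25.1 in Mature 1 to 3 and 37.0, 99.4, 61.4, 38.1 and 28.4 in Senile 1 to 5. Infancy and Senile did not overlap (log2 fold change -1.996, SE 0.38, edgeR adjusted p = 0.0144), and the Mature values overlapped both without a call against Infancy (adjusted p = 0.409). CTSZ, a lysosomal cysteine protease, was at 109, 91.7, 71.3 and 75.7 CPM in Infancy and 44.4, 29.0, 57.3, 47.7 and 49.8 in Senile (log2 fold change -1.17, SE 0.25, edgeR adjusted p = 0.0396), with Mature at 54.5, 44.5 and 56.4. Both kept their direction in every alternative, but PTPRK lost its call in 6 of them and without Infancy 3, Infancy 4 or Senile 1, and CTSZ in 6 of them, DESeq2 included, and without any of 7 single retinas. In SLIT2-negative RGCs the same contrast gave -0.71 for PTPRK and -0.27 for CTSZ, neither called (adjusted p = 0.816 and 0.888), and the test of the difference between the types did not pass for either (adjusted p = 1 for both). The other 3, CLU, SCG2 and PPIB, chosen after their values were seen, overlapped between stages, with log2 fold changes of -1.22, -1.56 and -1.38. GBGT1, a glycosyltransferase gene, was the one plain symbol higher in Mature than in Infancy. It was at 0, 3.16, 2.46 and 0 CPM in Infancy, 29.7, 36.8 and 12.5 in Mature and 5.54, 45.5, 12.3, 9.53 and 7.11 in Senile (Mature against Infancy log2 fold change 3.87, SE 0.80, edgeR adjusted p = 0.0474), and 2 of the Infancy retinas held no UMI. It was not called by DESeq2, without the Cell Ranger term, with retinas of at least 20 members, or without Mature 1, Mature 3 or Senile 4. It fell below the filter on low counts, and so had no test, without Infancy 1, Infancy 2, Infancy 3, Mature 2, Senile 1 or Senile 2, and with thinned nuclei, higher UMI minimums or no doublets.

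A single fit over both types in the same 12 retinas asked whether the change from Infancy to Senile differed between members and SLIT2-negative RGCs. Of 9193 genes 346 had an unadjusted p under 0.05, which chance alone gives in about 1 in 20. After adjustment 1 passed (0.0109%), the antisense feature RPL21-AS-5. In members it was at 50.1, 30.0, 98.3 and 23.3 CPM in Infancy 1 to 4 and 159, 195, 98.3, 0 and 64.0 in Senile 1 to 5, and in SLIT2-negative RGCs of the same retinas at 187, 28.8, 83.4 and 20.3 CPM in Infancy and 26.6, 33.3, 30.6, 4.90 and 52.5 in Senile. Members of both stages overlapped. As a feature antisense to a ribosomal protein gene, it cannot be told apart from reads of its partner, and the call was lost when any of 6 single retinas was left out.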

How the data were processed

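Nuclei of 15 TS retinas were profiled with 10x Genomics droplets. The authors aligned reads to the TS_3.0 genome and deposited raw UMI counts of 83605 features per barcode, made with Cell Ranger 6.1.2 or 7.0.1 per the file headers (5.0.1 or 7.0.1 in the submitters' processing notes). The members, gene lists and tests were chosen with earlier results of these data known.

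Counts were summed per retina and type (at least 10 nuclei) and tested with edgeR 4.0.16 (R 4.3.3, TMM, filterByExpr, quasi-likelihood F test). P-values were adjusted by Benjamini-Hochberg over all genes tested. The retina was a block between types, and the Cell Ranger version a covariate between stages. The 7 genes of the rule stayed in these fits and were left out of the counts and the naming of genes. SE is the absolute log2 fold change divided by the square root of F, not a separately estimated error. DESeq2 1.42.0 was an alternative, with others given at the end. Shares were tested by exact permutation (scipy 1.17.1). CPM are counts per 1000000 UMIs of a sum, and summed members held 104926 to 1009570 UMIs. Mitochondrial genes are nearly absent from the annotation, so that limit hardly acted. Doublets were called in each library by the share of artificial doublets among a nucleus's neighbours, kept, and left out as an alternative.

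Genes named between types were at most 12 higher and 8 lower by fold, called, in 1 direction in every retina and at 50 CPM or more in the higher type. Between stages they were called, did not overlap and held at least 10 CPM in each retina of the higher stage. Numbered copies, LINC, antisense and unnamed features were not named by this rule, and genes of the fixed lists were named beside it. Results for some genes are not reported here. The scripts were tested on simulated counts.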

Additional observations from a re-analysis of the deposited data

Results flagged for a closer look

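Of 16 checks for a sample far from its group, of which chance alone marks about 1 in 20, 1 was positive. GBGT1 stood at 45.5 CPM in members of Senile 2, against 5.54 to 12.3 CPM in the other 4 Senile retinas.

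The change from Infancy to Senile differed between members and SLIT2-negative RGCs for RPL21-AS-5, by 2.49 on the log2 scale (SE 0.45, edgeR interaction, Benjamini-Hochberg adjusted p = 0.0329). Over single retinas left out the difference ranged from 1.71 to 2.97, and its adjusted p was over 0.05 in 6 of 12 cases.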

How the results depend on the processing

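Counts of called genes that moved by over 1.5 times are given here. The ranges without single retinas are given whether or not they moved that far. The cause was not tested. Against SLIT2-negative RGCs 1108 became 1787 with no filter on low counts and 428 with nuclei thinned to 2000 UMIs. It became 663 within the members' depth range, 714 with no retina block and 935 to 1164 without single retinas. Within the depth range 1040 of the 1044 original calls still tested had the same direction, and thinning left 579 to test. Against FOXP2-positive RGCs 840 became 337 thinned, 485 within the members' depth range and 496 with RBPMS and SLC17A6 at 2 or more UMIs. It was 705 to 852 without single retinas. Against RUNX1-positive RGCs 481 became 285 by DESeq2 and 193 thinned, and 346 to 456 without single retinas. The members' depth range and the 2 UMI minimum left too few retinas for a fit.

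Between Senile and Infancy 26 became 51 by DESeq2, 178 with no filter, 7 thinned, 50 and 15 with SLIT2 minimums of 2 and 5, 15 without the Cell Ranger term, 69 (28 higher and 41 lower) with a replicate block and 96 in 6.1.2 libraries only (chosen after seeing the data, with 26 of 26 kept). It was 11 to 49 without single retinas, with 15, 11, 40, 14, 45 and 49 without Infancy 1, Infancy 2, Mature 3, Senile 1, Senile 3 and Senile 5. Between Mature and Infancy 16 became 31 by DESeq2, 104 with no filter, 8 thinned, 28 with RBPMS and SLC17A6 at 2 or more UMIs, 5 without the Cell Ranger term, 60 (19 and 41) with the replicate block, 31 with at least 20 nuclei per retina and 93 in 6.1.2 libraries (16 of 16 kept). It was 0 to 29 without single retinas, with 0 without Infancy 2 or Mature 1 and 1, 4, 26, 6, 10, 29 and 27 without Infancy 1, Infancy 3, Infancy 4, Mature 2, Senile 2, Senile 3 and Senile 5. Between Senile and Mature 0 became 7 by DESeq2, 44 with no filter, 1 with RBPMS and SLC17A6 at 2 or more UMIs, 2 without doublets, 1 with the replicate block, 3 in 6.1.2 libraries and 0 to 1 without single retinas (1 without Mature 1). The interaction's 1 became 3 with no filter, 0 without doublets and 0 to 1 without single retinas (0 without Infancy 1, Infancy 2, Senile 1, Senile 2, Senile 3 or Senile 4).

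For shares, Senile minus Mature turned to 2.13 points thinned and 0.0323 points of all nuclei. Without single retinas the differences were 2.49 to 6.97 points between Senile and Infancy, 4.81 to 9.30 between Mature and Infancy (exact p = 0.0238 after adjustment without Infancy 4) and -3.25 to -0.804 between Senile and Mature. With a replicate block the exact p were 0.4375, 0.0625 and 0.375, of which 0.0625 is the smallest such pairing allows. Correlations of same-numbered deviations were -0.225 to 0.263 (median 0.12) over 10 pairs, and 1 of 12 retinas correlated best with its own number. Over 37 pairs of different number they were -0.358 to 0.383 (median -0.0863). The deviations were taken from stage means and not adjusted for Cell Ranger version, so they cannot decide whether numbers pair the retinas.

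Among named genes that passed, no direction turned. Of those that did not pass, SLIT3 (-0.16 to 0.049 without single retinas), ROBO2, SNCG and STMN2 changed sign against SLIT2-negative RGCs. In the settings other than single retinas left out, 640 of 679 values against SLIT2-negative RGCs kept their side of the threshold, against FOXP2-positive 380 of 395, against RUNX1-positive 241 of 253, between Senile and Infancy 60 of 83 and between Mature and Infancy 72 of 83. For the stages 3 retinas had under 10 members and were left out, and the smallest sum held 104926 UMIs.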
